A study of Mus musculus with 8 samples.

Results

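Expression of 10 genes of the Kruppel-like factor family, Klf2, Klf3, Klf4, Klf5, Klf6, Klf7, Klf9, Klf10, Klf11 and Klf13, was followed across 4 subsets of medullary thymic epithelial cells (mTECs). The genes were chosen by name, through their Ensembl identifiers and GENCODE symbols, out of 25466 genes in the count table. After the filter on low counts 17006 genes were tested, and 10 of the 10 family genes were among them. The cells came from wild-type (wt) BL6N6 mice aged 4–6 weeks, were sorted as CD45neg Epcam-positive CDR1neg cells, and were divided by surface Tspan8, a tissue-restricted antigen, and by MHC class II. There were 2 libraries, described as biological replicates, for each of the subsets Tspan8negMHCIIlo, Tspan8negMHCIIhi, Tspan8posMHCIIhi and Tspan8posMHCIIlo, and the labels give no treatment and no mutant allele. The MHCIIlo gates hold immature as well as late mTECs, so a gate is not a single stage, and the sex of the mice and whether libraries with the same number share mice are not given in the sources used here.

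Kruppel-like factors are transcription factors with a C-terminal run of C2H2 zinc fingers that binds GC-rich DNA and CACCC boxes. Members differ mainly outside this domain: Klf3 recruits the co-repressor CtBP, Klf2, Klf4, Klf5, Klf6 and Klf7 act largely as activators, and Klf9, Klf10, Klf11 and Klf13 can recruit Sin3a. In stratified epithelia Klf4 is known for its part in barrier formation and terminal differentiation and Klf5 for its expression in proliferating epithelial cells, whereas Klf2 is best known in endothelium and in naive T cells.

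The family was divided into 3 groups by its calls, which need not share a profile. A gene was called where edgeR's quasi-likelihood test gave an adjusted p under 0.01 and a log2 fold change of at least 1 in size. Klf3, Klf4 and Klf5 were higher in Tspan8pos than in Tspan8neg mTECs at both MHCII levels and lowest in Tspan8negMHCIIhi, with a highest subset mean 6.55, 5.11 and 6.10 times the lowest. Klf2, Klf7 and Klf13 were called in other pairs of subsets, but not for Tspan8 at either MHCII level. Klf6, Klf9, Klf10 and Klf11 were called in none of the 6 pairs. Klf10 narrowly missed the fold limit in Tspan8posMHCIIlo against Tspan8negMHCIIhi, at 0.99 (edgeR adjusted p = 0.00682).

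Libraries held between 1941518 and 7783841 counts, the smallest being Tspan8posMHCIIlo replicate 1. The 8 mTEC markers, among them Epcam, Krt5, Krt14, Aire and Fezf2, summed to between 4851 and 10090 counts scaled to a common library total (CPM) in each library, against 437.5 to 1083 for 5 cortical markers. Markers of other cell types were also detected. The 11 thymocyte markers, of which 11 were detected, summed to 572 and 1625 CPM in the Tspan8negMHCIIlo replicates and to between 94.0 and 266 CPM in the other 6 libraries, and Tspan8negMHCIIlo replicate 2 stood apart in this sum. The 5 endothelial markers were also highest in Tspan8negMHCIIlo, at 136.5 and 98.8 CPM, and ranged from 14.5 to 71.5 CPM elsewhere. The sum of the 6 dendritic or myeloid markers ran the other way. It was 51.1 and 114 CPM in Tspan8negMHCIIlo, 353 and 408 in Tspan8negMHCIIhi, 422 and 439 in Tspan8posMHCIIhi, and 176 and 175 in Tspan8posMHCIIlo. Of the 5 tested, 3 were called higher and 0 lower in Tspan8negMHCIIhi than in Tspan8negMHCIIlo. In Tspan8posMHCIIlo against Tspan8negMHCIIlo 1 was higher and 1 lower, with a median log2 fold change of -0.50. The sum therefore did not stand for each marker. The fibroblast, erythroid and B cell sums stayed at or under 197, 102 and 51.2 CPM in every library, and the part of any of these cell types in the Klf differences was not tested. Values without Tspan8negMHCIIlo replicate 2 are given where a call ended without it. In bulk RNA, fewer cells of a type and less RNA per cell cannot be told apart.

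Promoters are shown for Klf3, Klf4 and Klf13, which were low together in Tspan8negMHCIIhi, and for Klf2, which was highest in Tspan8negMHCIIlo. The lowest subset mean of Klf2 was in Tspan8negMHCIIhi as well. Of the 10 genes, 8 matched an entry among the RefSeq promoters of GRCm38.p6, and Klf5 and Klf10 did not. In each, the 250 bases before the RefSeq start were searched for CACCC, the core of a Klf site, or its reverse complement GGGTG, and for the letters TGACGTCA and TGACTCA, a cAMP response element and an AP-1 site. The stretches below run 5′ to 3′ on the strand of the gene, end before the first base that GENCODE annotates as part of the gene, and mark matches in capitals. The first 2 lines carry CACCC or GGGTG, the third has no match, and the fourth carries TAAATTTA, the core of a MEF2 site, searched because MEF2 factors are known inducers of Klf2 and only after the sequence had been seen.
Klf3, 117 bases at chr5:64803271-64803387, plus strand: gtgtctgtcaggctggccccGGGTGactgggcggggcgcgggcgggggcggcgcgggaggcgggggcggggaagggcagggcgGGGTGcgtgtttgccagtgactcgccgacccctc
Klf13, 250 bases at chr7:63938916-63939165, minus strand: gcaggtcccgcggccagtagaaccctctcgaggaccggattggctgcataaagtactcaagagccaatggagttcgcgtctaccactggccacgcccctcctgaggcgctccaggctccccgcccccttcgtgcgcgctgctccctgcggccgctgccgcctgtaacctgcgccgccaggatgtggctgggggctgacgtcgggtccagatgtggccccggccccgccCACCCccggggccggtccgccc
Klf4, 250 bases at chr4:55532476-55532725, minus strand: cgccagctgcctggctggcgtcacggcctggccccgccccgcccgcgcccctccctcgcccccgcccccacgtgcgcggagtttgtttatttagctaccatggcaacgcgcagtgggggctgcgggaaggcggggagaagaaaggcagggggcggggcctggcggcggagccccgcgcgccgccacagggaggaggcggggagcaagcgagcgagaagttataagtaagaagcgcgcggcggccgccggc
Klf2, 221 bases at chr8:72318812-72319032, plus strand: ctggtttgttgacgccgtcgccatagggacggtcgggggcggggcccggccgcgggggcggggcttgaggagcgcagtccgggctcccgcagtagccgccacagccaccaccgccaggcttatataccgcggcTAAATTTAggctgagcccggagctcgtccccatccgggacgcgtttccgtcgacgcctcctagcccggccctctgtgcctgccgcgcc

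In the full windows CACCC or GGGTG occurred 5 times before the RefSeq start of Klf3, 3 times before that of Klf7 and 1 time each before those of Klf2, Klf9 and Klf13. Some of the Klf3 matches, the Klf2 match and the whole Klf7 window fall inside the GENCODE coordinates of the gene. It was absent from the windows of Klf4, Klf6 and Klf11. The same motif lies in 52.1% of 32536 promoter windows of this length, where 5 of the 8 members held it. TAAATTTA, found upstream of Klf2 alone, is in 0.504% of the windows. TGACGTCA and TGACTCA, present in 1.56% and 4.45% of all windows, were in none of the 8. All 8 windows were rich in G and C, from 59.2% for Klf7 to 78.4% for Klf3 against a median of 52.4%. Klf3, Klf4 and Klf13, which were low in the same subset, therefore had 5, 0 and 1 matches to the core.

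**Figure D1:**
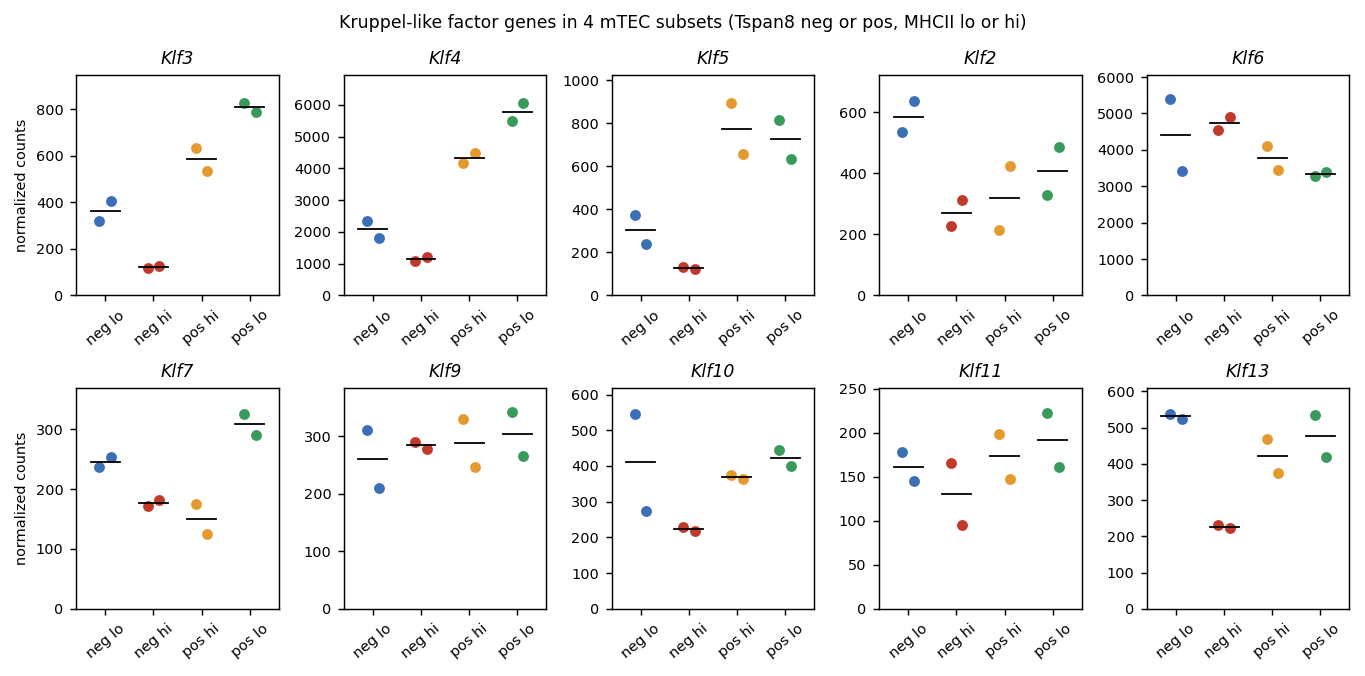
Normalized counts (y axis, from 0) of the 10 genes in the subsets Tspan8neg or Tspan8pos, MHCII lo or hi (x axis). Points are single libraries and lines are means of 2. Klf3, Klf4 and Klf5 rise from the Tspan8negMHCIIhi libraries to the Tspan8pos libraries, while Klf9 stays between 210 and 343 in every library.

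The comparison of Tspan8pos with Tspan8neg mTECs addresses what goes with expression of this antigen at a given MHCII level, and that of MHCIIhi with MHCIIlo addresses maturation. In Tspan8posMHCIIlo against Tspan8negMHCIIlo, 3 of the 10 genes were called higher and 0 lower, where 12.1% of all tested genes were called higher and 9.34% lower. In Tspan8posMHCIIhi against Tspan8negMHCIIhi the counts were 3 higher and 0 lower, beside 11.0% and 7.45% of all genes. The higher genes were Klf3, Klf4 and Klf5 in both comparisons. In Tspan8negMHCIIhi against Tspan8negMHCIIlo, 4 of 10 were lower, Klf2, Klf3, Klf5 and Klf13, and 0 higher, beside 9.67% lower and 13.1% higher among all genes.

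Within Tspan8pos cells 1 of the 10 genes, Klf7, was lower in Tspan8posMHCIIhi than in Tspan8posMHCIIlo and 0 were higher. Among all genes 2.62% were called lower and 4.59% higher, so calls were few in this comparison over all genes as well. The remaining pairs cross both sorts. Tspan8posMHCIIlo against Tspan8negMHCIIhi gave 4 higher, Klf3, Klf4, Klf5 and Klf13, and 0 lower, beside 14.7% and 14.6%. Tspan8posMHCIIhi against Tspan8negMHCIIlo gave 2 higher, Klf4 and Klf5, and 0 lower, beside 14.4% and 10.3%. The median log2 fold change of the 10 genes was 0.20, 0.64, -0.95, -0.19, 0.93 and -0.04 in these 6 comparisons in the order given, where the median over all tested genes lay between -0.04 and 0.02. The comparisons share libraries with each other, so they do not repeat one another independently.

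**Figure D2:**
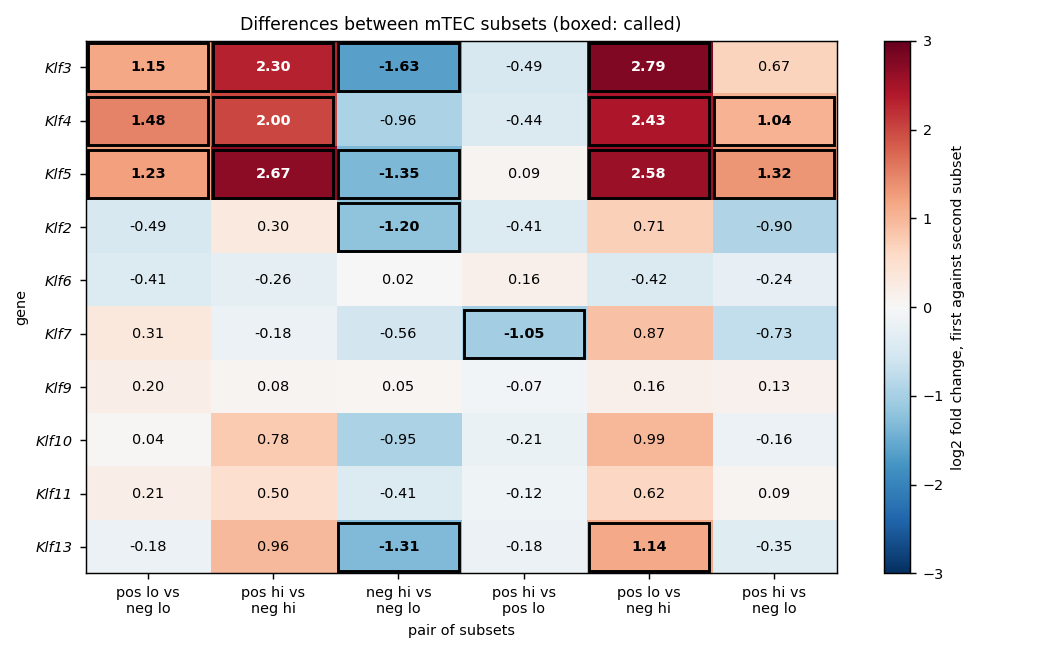
Log2 fold change (colour and printed value) of each gene (rows) in the 6 pairs of subsets (columns, first against second), from edgeR. Boxes mark calls at an adjusted p under 0.01 and a fold change of at least 2. The boxes cluster in the rows of Klf3, Klf4 and Klf5, with Klf3 reaching 2.79 between Tspan8posMHCIIlo and Tspan8negMHCIIhi.

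Klf3, the CtBP-binding repressor of the family (ENSMUSG00000029178, chr5:64803388-64832901, plus strand of GRCm38), showed the widest spread between subsets. Its normalized counts, which are counts divided by DESeq2 size factors, were 319 and 405 in Tspan8negMHCIIlo and 119 and 128 in Tspan8negMHCIIhi. In Tspan8posMHCIIhi they were 635 and 535, and in Tspan8posMHCIIlo 828 and 790. The 4 subsets did not overlap, and Tspan8negMHCIIhi was low in both replicates. Klf3 was higher in Tspan8pos than in Tspan8neg cells by a log2 fold change of 2.30 ± 0.17 (SE, n = 2 per subset, edgeR adjusted p = 1.97e-06) among MHCIIhi cells and by 1.15 ± 0.16 (edgeR adjusted p = 0.000178) among MHCIIlo cells. In Tspan8neg cells it fell by 1.63 on the log2 scale from MHCIIlo to MHCIIhi (edgeR adjusted p = 2.78e-05). In Tspan8pos cells the corresponding difference was -0.49 ± 0.15 and was not called (edgeR adjusted p = 0.0535). Without Tspan8negMHCIIlo replicate 1 the difference among MHCIIlo cells was 0.98, just under the limit on the fold change. Klf3 overlaps exons of Gm20033 on the opposite strand and lies over C230096K16Rik on its own strand, which held 91 and 180 counts over the 8 libraries, against 122 to 1313 counts of Klf3 in each library.

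Klf4, a zinc finger activator of epithelial differentiation (ENSMUSG00000003032, chr4:55527143-55532466, minus strand), was the most abundant member per exon length in Tspan8pos mTECs. Its normalized counts were 2340 and 1817 in Tspan8negMHCIIlo, 1070 and 1197 in Tspan8negMHCIIhi, 4183 and 4484 in Tspan8posMHCIIhi, and 5497 and 6074 in Tspan8posMHCIIlo. No 2 subsets overlapped, and every Tspan8pos library was above every Tspan8neg library. Klf4 was higher with Tspan8 by a log2 fold change of 2.00 ± 0.15 among MHCIIhi cells (edgeR adjusted p = 2.38e-06) and by 1.48 ± 0.15 among MHCIIlo cells (edgeR adjusted p = 1.67e-05), which are fitted folds of 3.99 and 2.78. From Tspan8negMHCIIlo to Tspan8negMHCIIhi its difference was -0.96 ± 0.15 (edgeR adjusted p = 0.000384), which missed the limit on the fold change. Without Tspan8negMHCIIlo replicate 2 that difference was -1.13 and was called. Between Tspan8posMHCIIhi and Tspan8negMHCIIlo the difference of 1.04 (edgeR adjusted p = 0.000173) became 0.88 without Tspan8negMHCIIlo replicate 2 and 1.00 without Tspan8posMHCIIhi replicate 2, and neither was called.

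Klf5, an activator found in basal and proliferating epithelium (ENSMUSG00000005148, chr14:99298691-99315036, plus strand), had normalized counts of 374.5 and 238 in Tspan8negMHCIIlo and 132 and 122 in Tspan8negMHCIIhi. In Tspan8posMHCIIhi they were 895 and 656, and in Tspan8posMHCIIlo 816 and 636. Both Tspan8pos subsets lay in 1 common range, above every Tspan8neg library. Klf5 was higher with Tspan8 by a log2 fold change of 2.67 ± 0.24 among MHCIIhi cells (edgeR adjusted p = 7.81e-06) and by 1.23 ± 0.23 among MHCIIlo cells (edgeR adjusted p = 0.00126). The latter was 0.94 without Tspan8negMHCIIlo replicate 2 and 1.06, with an edgeR adjusted p of 0.0149, without Tspan8posMHCIIlo replicate 1, and was called in neither case. In Tspan8neg cells Klf5 fell by 1.35 on the log2 scale from MHCIIlo to MHCIIhi (edgeR adjusted p = 0.000961). Leaving out Tspan8negMHCIIhi replicate 1 or 2 gave -1.31 and -1.20 with edgeR adjusted p values of 0.0101 and 0.0195, so that the call ended. In Tspan8pos cells the MHCII difference was 0.09, with a 95% interval from -0.38 to 0.57.

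Klf2, an activator that the MEK5-ERK5-MEF2 cascade induces in endothelium (ENSMUSG00000055148, chr8:72319033-72321656, plus strand), was highest in Tspan8negMHCIIlo, unlike the preceding genes. Normalized counts were 535 and 637 in Tspan8negMHCIIlo, 226 and 313 in Tspan8negMHCIIhi, 215 and 425 in Tspan8posMHCIIhi, and 330 and 487 in Tspan8posMHCIIlo. The Tspan8negMHCIIlo replicates lay above the other 6 libraries, and Tspan8posMHCIIhi overlapped with both of the remaining subsets. In each of the 4 subsets replicate 2 was the higher library. For Klf5, Klf9, Klf11 and Klf13 it was replicate 1 in each subset. Klf2 fell by 1.20 on the log2 scale from Tspan8negMHCIIlo to Tspan8negMHCIIhi (SE 0.29, edgeR adjusted p = 0.00699). The call ended without Tspan8negMHCIIlo replicate 2, where the difference was -1.06 (edgeR adjusted p = 0.0144), without Tspan8negMHCIIhi replicate 1 (-0.90) or replicate 2 (-1.37), and without Tspan8posMHCIIlo replicate 2 (-1.20, edgeR adjusted p = 0.0101). With DESeq2 size factors in the edgeR fit it was -1.11, with an adjusted p of 0.0104, and was not called. The call held by DESeq2's Wald test (-1.12, DESeq2 adjusted p = 0.00116) and with libraries thinned to the smallest total (-1.18, edgeR adjusted p = 0.00454). The thymocyte and endothelial markers given above were highest in the same subset, and endothelium is a cell type in which Klf2 is known to be expressed. The part of thymocytes and endothelial cells in the Klf2 difference was not tested.

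Among 6 genes of the MEK5-ERK5-MEF2 cascade, 0 were called in Tspan8negMHCIIhi against Tspan8negMHCIIlo by edgeR, where Klf2 fell. Of all tested genes, 9.67% were called lower and 13.1% higher. The median log2 fold change of the 6 was -0.83, against -0.04 over all tested genes. Each of the 6 had a lower mean normalized count in Tspan8negMHCIIhi, so the lack of calls does not show an unchanged cascade.

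Klf7, an activator known from neurons and adipose tissue (ENSMUSG00000025959, chr1:64029447-64122282, minus strand), was the only member called between the Tspan8pos subsets. Its normalized counts were 237 and 254 in Tspan8negMHCIIlo, 171 and 182 in Tspan8negMHCIIhi, 174.5 and 125 in Tspan8posMHCIIhi, and 325 and 290.5 in Tspan8posMHCIIlo. Both MHCIIlo subsets lay above both MHCIIhi subsets, which overlapped. Klf7 was lower by 1.05 on the log2 scale in Tspan8posMHCIIhi than in Tspan8posMHCIIlo, that is a log2 fold change of -1.05 ± 0.18 (edgeR adjusted p = 0.00237). This call ended without Tspan8posMHCIIhi replicate 2 (-0.82), Tspan8posMHCIIlo replicate 1 (-0.96) or Tspan8posMHCIIlo replicate 2 (-1.12, edgeR adjusted p = 0.0254). In Tspan8neg cells the difference was -0.56 ± 0.18 and was not called (edgeR adjusted p = 0.0251). Klf7 overlaps exons of Gm26649 and Gm13748 on the opposite strand, for which the table has no row, as it has none for Mir6899, a miRNA gene within Klf7 on the same strand.

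Klf6, an activator known from injured liver and vessel wall (ENSMUSG00000000078, chr13:5861482-5870394, plus strand), was the most abundant member per exon length in Tspan8neg cells and varied little. Its normalized counts were 5412 and 3428 in Tspan8negMHCIIlo, 4557 and 4914 in Tspan8negMHCIIhi, 4102 and 3459 in Tspan8posMHCIIhi, and 3278 and 3392 in Tspan8posMHCIIlo. The Tspan8negMHCIIlo replicates spanned the range of the other libraries but for the lowest 2. Its log2 fold changes lay between -0.42 and 0.16 over the 6 pairs, the smallest edgeR adjusted p was 0.0790, and no 95% interval reached beyond 0.83 in size.

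Among the Sin3a-binding members Klf13, known from lymphocyte chemokine expression (ENSMUSG00000052040, chr7:63886351-63938915, minus strand), had 1 subset apart from the rest. Normalized counts were 538.5 and 523.5 in Tspan8negMHCIIlo and 230 and 223 in Tspan8negMHCIIhi. They were 469 and 375 in Tspan8posMHCIIhi and 535 and 419 in Tspan8posMHCIIlo. Tspan8posMHCIIlo overlapped with Tspan8negMHCIIlo and with Tspan8posMHCIIhi, and the lowest library of these 3 subsets was above both Tspan8negMHCIIhi libraries. Klf13 fell by 1.31 on the log2 scale from Tspan8negMHCIIlo to Tspan8negMHCIIhi (SE 0.16, edgeR adjusted p = 9.75e-05). It was higher by 1.14 in Tspan8posMHCIIlo than in Tspan8negMHCIIhi (edgeR adjusted p = 0.000173), or 0.98 without Tspan8posMHCIIlo replicate 1. Gm27252 and E030018B13Rik lie within Klf13 on the opposite strand without sharing exon bases, and held 13 and 2 counts over the 8 libraries. With Tspan8 its log2 fold change was 0.96 ± 0.16 among MHCIIhi cells (edgeR adjusted p = 0.000815), under the limit on the fold change, and -0.18 ± 0.16 among MHCIIlo cells (edgeR adjusted p = 0.413). Without Tspan8posMHCIIhi replicate 2 the former was 1.13 and was called.

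Klf10, a gene induced by TGF-beta (ENSMUSG00000037465, chr15:38291463-38300706, minus strand), was also lowest in Tspan8negMHCIIhi, with normalized counts of 229 and 219. It had 376 and 362 in Tspan8posMHCIIhi, 444 and 401 in Tspan8posMHCIIlo, and 546 and 274 in Tspan8negMHCIIlo, so the last subset spanned the range of both Tspan8pos subsets. The largest differences were 0.99 in Tspan8posMHCIIlo against Tspan8negMHCIIhi (edgeR adjusted p = 0.00682) and -0.95 in Tspan8negMHCIIhi against Tspan8negMHCIIlo (edgeR adjusted p = 0.0102). Without Tspan8negMHCIIlo replicate 2 the latter was -1.37, with 546 as the remaining value of that subset. Without Tspan8negMHCIIlo replicate 1 it was -0.39, with 274 remaining, so its size rested on which library was kept. Of 6 TGF-beta response genes, 0 were higher and 1, Ski, was lower in Tspan8negMHCIIhi than in Tspan8negMHCIIlo. Over all tested genes 13.1% were called higher and 9.67% lower, so these counts do not set the list apart.

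Klf9 and Klf11 showed no call. Klf9, which glucocorticoids induce and which holds the miRNA gene Mir1192 on its own strand, ranged from 210 to 343 normalized counts over the 8 libraries and every pair of neighbouring subsets overlapped. Its log2 fold changes lay between -0.07 and 0.20, with no 95% interval beyond 0.68 in size. Klf11, close to Klf10 in sequence, ranged from 95.1 to 222, with log2 fold changes between -0.41 and 0.62 and a smallest edgeR adjusted p of 0.0826. The widest of its intervals reached 1.22, so a difference of the called size in Klf11 is not excluded at this depth. Of 6 glucocorticoid-induced genes, 1, Sgk1, was higher and 1, Zbtb16, lower in Tspan8posMHCIIhi than in Tspan8negMHCIIhi. Over all tested genes 11.0% were called higher and 7.45% lower, so these counts do not set the list apart.

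The Tspan8 difference itself depended on MHCII level for some members. The interaction, coded as the Tspan8 difference among MHCIIlo cells minus that among MHCIIhi cells, called 2 of the 10 genes lower and 0 higher, beside 2.24% and 2.36% of all genes. These were Klf3 (-1.15 ± 0.23, edgeR adjusted p = 0.00871) and Klf13 (-1.14 ± 0.23, edgeR adjusted p = 0.00943), both close to the limit. For Klf5 it was -1.44 ± 0.32 (edgeR adjusted p = 0.0153), for Klf4 -0.52 ± 0.20 (edgeR adjusted p = 0.128), and neither was called. Klf5 was called at -1.37 by DESeq2's Wald test (DESeq2 adjusted p = 0.00223) and without a filter on low counts (edgeR adjusted p = 0.00236), and with the adjusted p limit of edgeR at 0.05. The value for Klf3 was -1.08 (edgeR adjusted p = 0.0114) with DESeq2 size factors and -0.94 (edgeR adjusted p = 0.0626) with libraries thinned to the smallest total, and for Klf13 -1.07 and -1.18. Leaving out any Tspan8negMHCIIhi, Tspan8posMHCIIhi or Tspan8posMHCIIlo library ended both calls, with values from -1.28 to -1.04 for Klf3 and from -1.32 to -0.97 for Klf13. Without Tspan8negMHCIIlo replicate 2 the value for Klf3 was -0.97, while Klf5 was called at -1.75 (edgeR adjusted p = 0.000520). The direction held throughout, and the sign is that of a larger Tspan8 difference among MHCIIhi cells, where the Tspan8neg libraries of these genes were lowest.

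**Figure D3:**
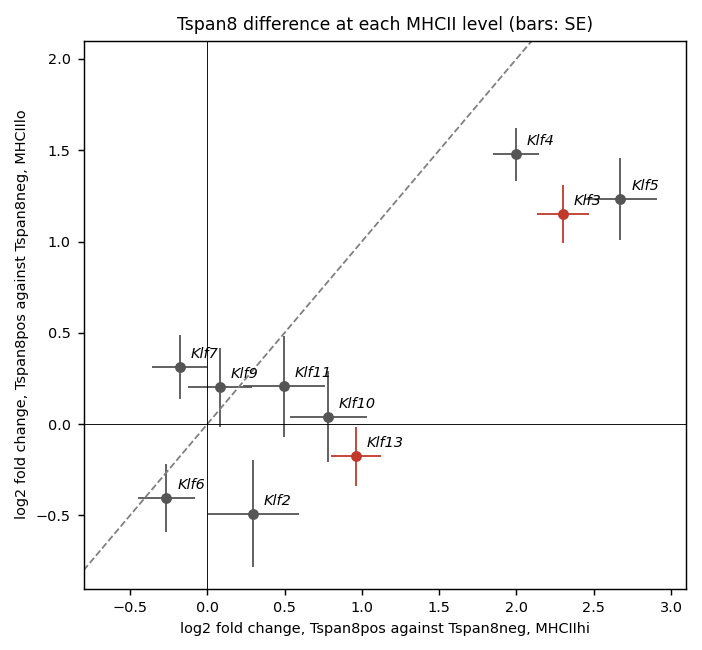
Log2 fold change of Tspan8pos against Tspan8neg mTECs among MHCIIhi cells (x axis) and among MHCIIlo cells (y axis) for the 10 genes, with bars of 1 SE and a dashed line of equal values. Red points, Klf3 and Klf13, were called in the interaction. Klf3, Klf4 and Klf5 sit at the right, below the dashed line, and Klf13 lies near 0 on the y axis and at 0.96 on the x axis.

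Per exon length, Klf4 and Klf6 together made up 67.3% to 79.6% of the RNA of the 10 genes in every library, as CPM per kilobase of exon. Their order changed with Tspan8. The ratio of Klf4 to Klf6 was 0.623 and 0.763 in Tspan8negMHCIIlo, 0.338 and 0.351 in Tspan8negMHCIIhi, 1.47 and 1.87 in Tspan8posMHCIIhi, and 2.42 and 2.58 in Tspan8posMHCIIlo. It was under 1 in 4 of 4 Tspan8neg libraries and above 1 in 4 of 4 Tspan8pos libraries. The level of Klf4 in these units averaged 79.1 in Tspan8negMHCIIhi and 427 in Tspan8posMHCIIlo, and that of Klf6 230 and 171. Klf3, despite its wide spread between subsets, was the lowest member on this scale in Tspan8negMHCIIhi, with a mean of 2.34, and had 16.2 in Tspan8posMHCIIlo, below Klf2, Klf4, Klf5, Klf6 and Klf10. The sum over the 10 genes was 612 and 464 in Tspan8negMHCIIlo, 372 and 405 in Tspan8negMHCIIhi, 654 and 642 in Tspan8posMHCIIhi, and 736 and 795 in Tspan8posMHCIIlo, so that Tspan8negMHCIIhi held the lowest sum.

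**Figure D4:**
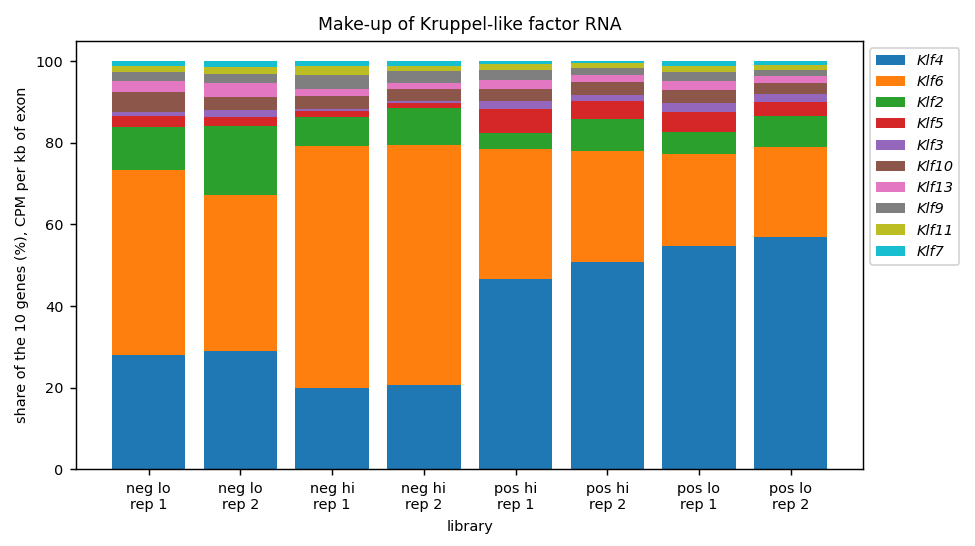
Share of each gene (colours) in the summed CPM per kilobase of exon of the 10 genes (y axis, percent) in each library (x axis). Klf4 takes at most 20.7% in Tspan8negMHCIIhi and 54.7% and 56.9% in Tspan8posMHCIIlo, while Klf6 goes from 59.2% and 58.9% to 22.6% and 22.1%.

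Genes with a similar profile were sought for the 3 members whose subset means spanned at least 4 times, by Pearson's r on log2(CPM + 1) over the 8 libraries among 10951 other genes. As the libraries fall into 4 subsets, these r values mostly describe subset means. The closest genes to Klf3 were Hepacam2 (r = 0.995), Lgals3bp (0.995) and Krt19 (0.995), a simple-epithelium keratin. Closest to Klf4 were Dab2ip (0.996), Myo1d (0.994) and Ssh3 (0.994), and closest to Klf5 were Anxa1 (0.996), Lap3 (0.991) and Frmd4b (0.990). Hepacam2, for instance, had mean normalized counts of 270.3, 64.0, 467 and 876 in Tspan8negMHCIIlo, Tspan8negMHCIIhi, Tspan8posMHCIIhi and Tspan8posMHCIIlo, the order in which Klf3 stood.

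Tuft cell and immediate early genes moved along with parts of these profiles. The 5 tuft markers, with 5 detected, summed to 866.5 and 1161 CPM in Tspan8negMHCIIlo, 130 and 140 in Tspan8negMHCIIhi, 886 and 1013 in Tspan8posMHCIIhi, and 5382 and 5492 in Tspan8posMHCIIlo. As for Klf3, Klf4, Klf5, Klf10 and Klf13, both Tspan8negMHCIIhi libraries were lowest. The tuft sums of Tspan8negMHCIIlo and Tspan8posMHCIIhi overlapped, as did the counts of Klf10. Between the same subsets Klf3, Klf4 and Klf5 were higher in Tspan8posMHCIIhi without overlap, and Klf13 was lower without overlap. With Tspan8, 5 of the 5 were called higher at each MHCII level, and 5 of 5 were lower in Tspan8posMHCIIhi than in Tspan8posMHCIIlo, the comparison in which Klf7 was the called member. The share of tuft cells in each gate and its part in the Klf differences was not tested.

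Immediate early genes, a group induced within minutes by growth factors, stress and cell dissociation, to which several Klf genes are often counted, were lowest in the same subset. The sum of 17 of them, among them Fos, Jun and Atf3, was 19290 and 16790 CPM in Tspan8negMHCIIlo, 8872 and 8706 in Tspan8negMHCIIhi, 13120 and 14650 in Tspan8posMHCIIhi, and 16970 and 18940 in Tspan8posMHCIIlo. Of the 17, 0 were higher and 9 lower in Tspan8negMHCIIhi than in Tspan8negMHCIIlo, with a median log2 fold change of -1.21 against -0.04 over all genes. Fos fell by 1.54 and Atf3 by 1.66 on the log2 scale (edgeR adjusted p = 1.57e-05 and 2.91e-05). With Tspan8, 6 were higher among MHCIIhi cells and 3 among MHCIIlo cells, led by Egr3 at 2.84 and 2.13 (edgeR adjusted p = 8.20e-07 and 3.56e-06). The part of this gene group in the Klf differences was not tested.

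**Figure D5:**
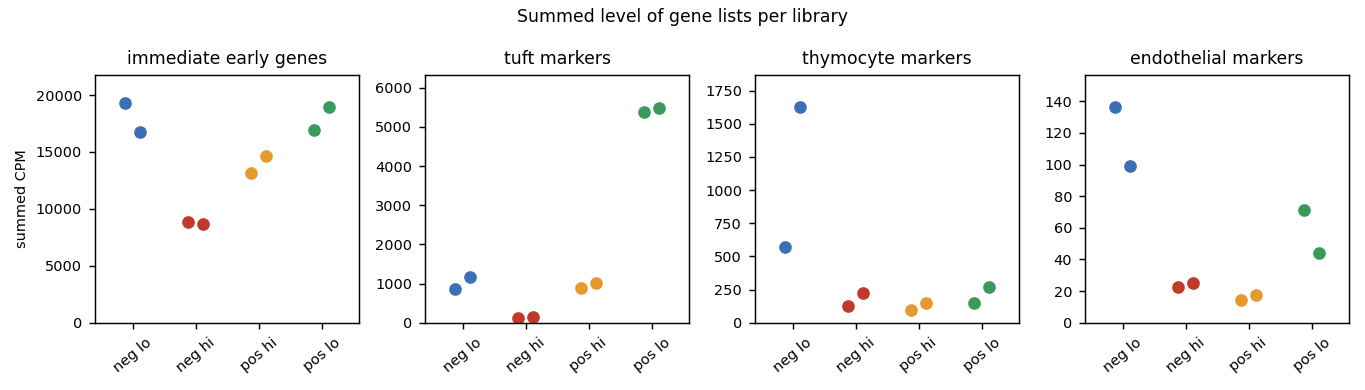
Summed CPM (y axes, from 0) of 17 immediate early genes and of 5 tuft, 11 thymocyte and 5 endothelial markers in each library, by subset (x axis). Immediate early genes and tuft markers are lowest in Tspan8negMHCIIhi, and the thymocyte and endothelial sums are highest in Tspan8negMHCIIlo, with 1 thymocyte value at 1625.

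Genes of the epidermal barrier, a process in which Klf4 is a known regulator, were higher with Tspan8. Of 12 tested, 11 were called higher among MHCIIlo cells and 10 among MHCIIhi cells, with median log2 fold changes of 4.87 and 3.47. Along MHCII in Tspan8neg cells, however, 5 of the 12 were higher and 0 lower in MHCIIhi, while Klf4 had a log2 fold change of -0.96 in that comparison. Among 14 cofactors and regulators of Klf proteins, including Ctbp1, Ctbp2, Sin3a and Wwp1, 0 were called with Tspan8 among MHCIIlo cells and 1 among MHCIIhi cells. That gene was Kat2b, an acetyltransferase (1.39, edgeR adjusted p = 0.000220). Of all tested genes, 12.1% were called higher and 9.34% lower among MHCIIlo cells, and 11.0% and 7.45% among MHCIIhi cells. CtBP and Sin3a genes, the partners of the repressing members, were not called in either Tspan8 comparison, as most genes were not.

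Of the 7 other Klf genes in the table, 4, Klf8, Klf12, Klf15 and Klf16, passed the filter on low counts. Klf1, the erythroid factor, had 2 and 0 counts in Tspan8negMHCIIlo, 4 and 23 in Tspan8negMHCIIhi, 4 and 2 in Tspan8posMHCIIhi, and 0 and 0 in Tspan8posMHCIIlo. A count of 0 there allows up to 3 counts, or 1.55 CPM in the smaller library and 0.385 CPM in the larger. Klf15 was the only one of the 4 called in any pair, being lower in Tspan8posMHCIIlo, with 1 and 2 counts, than in Tspan8negMHCIIlo, with 8 and 27 (edgeR adjusted p = 0.00928). Klf16 had normalized counts of 263 and 178 in Tspan8negMHCIIlo and between 123 and 190 in the other libraries.

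In the related Sp family, which has the same zinc finger type, Sp6, known from tooth and skin epithelium, went the other way along MHCII from Klf3 and Klf13. Its normalized counts were 51.35 and 49.95 in Tspan8negMHCIIlo, 319 and 356 in Tspan8negMHCIIhi, 295 and 346 in Tspan8posMHCIIhi, and 219 and 287 in Tspan8posMHCIIlo. Tspan8negMHCIIlo stood below the 3 other subsets. Its log2 fold change from Tspan8negMHCIIlo to Tspan8negMHCIIhi was 2.65 (edgeR adjusted p = 3.45e-06), where Klf3, Klf5, Klf13 and Klf2 fell. Sp7, an osteoblast factor, had 18 and 23 counts in Tspan8negMHCIIhi, 4 and 6 in Tspan8posMHCIIhi and 0 in each MHCIIlo library. Of the 6 Sp genes tested, Sp1, Sp2, Sp3 and Sp4 were called in none of the 6 pairs.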

How the data were processed

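RNA-seq of 8 mTEC libraries, 2 per subset, was analysed, grouped by the subset and replicate number in the sample titles. Estimated counts, given per gene as whole numbers and not normalized, were deposited by the authors in 1 table, with Salmon 1.8.0 named in the submitters' processing notes and Gencode transcripts as reference. Library totals were 1941518 to 7783841. The sources name both a tagmentation protocol after cDNA amplification and a strand-specific kit, so strand is unsettled and genes that overlap are named as such. The members and gene lists were chosen with earlier results of these data known.

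All 25466 genes entered 1 fit of 8 libraries in edgeR 4.0.16 (R 4.3.3) with TMM scaling and filterByExpr. P-values of the two-sided quasi-likelihood test were adjusted by Benjamini-Hochberg over 17006 genes and called under 0.01 with a log2 fold change of at least 1. An SE is the size of the log2 fold change over the root of its F statistic. An exact permutation test of 2 against 2 libraries cannot go below 0.333, so none is given. Levels are counts divided by size factors of DESeq2 1.42.0, and levels between genes use TMM-scaled CPM per kilobase of GENCODE exon bases (GRCm38). Named genes are the 10 members, tested Klf and Sp genes, up to 4 called genes with the largest change from each list, and 3 genes of highest Pearson r (mean of at least 10 CPM) for members spanning at least 4 times. Klf1, Fos and the cofactors without a call were named beyond this rule after their values were seen. Counting floors are 3 counts and cover counting error only, because amplified reads are not independent molecules. Alternatives were DESeq2's test and size factors, other filters and thresholds, the 4 libraries of a pair alone, a replicate block, thinning to the smallest total, and leaving out each library. The scripts were tested on simulated data. A list of lymphocyte genes linked to Klf2 is not reported here.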

Additional observations from a re-analysis of the deposited data

Results flagged for a closer look

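The Tspan8 difference varied with MHCII level, by the interaction term of the edgeR fit, for 2 members and 1 related gene. Given as the log2 fold change among MHCIIlo cells minus that among MHCIIhi cells, it was -1.15 for Klf3 and -1.14 for Klf13 (edgeR adjusted p = 0.00871 and 0.00943). For Klf3 the Tspan8 differences behind it were 1.15 and 2.30, and for Klf13 -0.18 and 0.96. For Sp6, a factor of the related Sp family, it was 2.37 (edgeR adjusted p = 0.000442), with Tspan8 differences of 2.35 among MHCIIlo cells and -0.02 among MHCIIhi cells. Whether other cells in the gates contribute to these values was not tested.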

How the results depend on the processing

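Counts of called members stayed within 1.5 times of those reported under every alternative that kept all 8 libraries, with 3 exceptions. Without a limit on the fold change, 4 members were called in Tspan8posMHCIIhi against Tspan8negMHCIIlo, because Klf3 and Klf7 lie under that limit. With DESeq2 size factors 0 were called in the interaction, and with thinned libraries 0, though DESeq2's own Wald test called 3. The cause was not tested. Leaving out 1 library at a time, the lone replicate being assumed to vary like the other subsets, gave 2 to 5 calls in Tspan8negMHCIIhi against Tspan8negMHCIIlo, 0 to 1 in Tspan8posMHCIIhi against Tspan8posMHCIIlo, 1 to 2 in Tspan8posMHCIIhi against Tspan8negMHCIIlo and 0 to 3 in the interaction. The log2 fold change of Klf2 in Tspan8posMHCIIhi against Tspan8negMHCIIhi, 0.30 and not called, ranged from -0.26 to 0.73 and was reversed without Tspan8posMHCIIhi replicate 2, whose count is the higher of the pair. Of 524 recomputed values of single members, 482 kept their result, 33 lost the call, 8 gained it and 1 reversed. For a log2 fold change, to keep the result meant the same direction and side of the threshold. The 524 also hold the highest-to-lowest ratios of Klf3, Klf4 and Klf5, which kept theirs by staying within the replicate spread. Only values called in the reported fit could lose a call, so the 33 are not a share of all 524. Same-numbered libraries deviated together with correlations of 0.0121 to 0.124, so the numbers were not taken to pair them. Klf2 was nevertheless higher in replicate 2 of every subset, and Klf5, Klf9, Klf11 and Klf13 in replicate 1. The replicate block gave 3 calls in the interaction in place of 2, adding Klf5 (-1.38, edgeR adjusted p = 0.000932), and moved no other count. Precision is limited by 2 libraries per subset and a smallest total of 1941518 counts.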
